A study of Arabidopsis thaliana with 14 samples.

Results

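The comparison of KAR1 with water in wild type Arabidopsis thaliana seed rests on 8 of the 14 arrays of the series, chosen by their labels: 4 of seed on water and 4 of seed on KAR1. The seed was of the Landsberg erecta (Ler) wild type, was primary dormant and had been kept frozen to hold that dormancy. It was imbibed for 24 h at 20 °C in white light of 100 uE on agar of 0.8%, without KAR1 or with 1 uM of it. Each letter from A to D names a separate harvest of seed, and each harvest was assayed on both media, so the arrays form 4 pairs. The other 6 arrays hold seed of the gibberellin-deficient mutant ga1-3 from harvests A to C of its own, treated the same way. Whole seed was extracted, so embryo, endosperm and seed coat were measured together, and fewer cells of a type and less RNA per cell cannot be told apart.

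Karrikins are butenolides formed when plant matter burns, and KAR1 is the one best known from smoke. They act through the hydrolase KAI2 and the F-box protein MAX2, which together mark the SMAX1 family of repressors for breakdown. In Arabidopsis they are known for promoting germination of dormant seed, which also needs light and gibberellin, and for strengthening light responses of seedlings. KAI2, MAX2, SMAX1 and the responsive genes DLK2 and KUF1 were not analysed here, because the platform annotation in use pairs none of the 9 listed karrikin pathway loci with a probe set of their own.

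In the fit with the seed batch as block, wild type seed on KAR1 had higher transcript levels of several regulators of light signalling. Several enzymes and transporters, grouped after their values were seen, were higher as well. A smaller group that includes XERICO and a lysine-degrading enzyme was lower. Of 22810 probe sets, 10754 were tested: those that are not array controls and whose mean intensity reached 16 (4 on the log2 scale) in at least 1 of the groups. With the seed batch as block, 111 (1.03%) passed limma's test at an adjusted p under 0.05, of which 89 (0.828%) were higher and 22 (0.205%) lower on KAR1. The median log2 difference was 0.74 among the higher and -0.56 among the lower ones, and 23 higher and 1 lower probe set differed at least 2-fold. All 111 had the same sign of difference in all 4 seed batches, as did 10.5% of the tested probe sets upward and 10.5% downward. Every KAR1 array lay above every water array in 43 of the 89, and below in 12 of the 22. Over all tested probe sets it was so in 110 (1.02%) above and 107 (0.995%) below. These counts use the differences that chose the calls and are given as a description.

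The number of calls depended on the fit. It was 0 without the seed batch as block (315 at an unadjusted p under 0.05), 0 without the level threshold (1469 at an unadjusted p under 0.05) and 36 when p-values were adjusted over all 22746 probe sets that are not controls. Leaving out batch A or batch C also gave 0 calls (1293 and 971 at an unadjusted p under 0.05), leaving out batch D gave 4, and leaving out batch B gave 240. By chance 538 of the 10754 probe sets are expected at an unadjusted p under 0.05, and the 1469 are among 22746. Each of the 111 kept its direction in these settings. That was fixed in advance, because each had the same sign of difference in all 4 seed batches, so it is no test of the calls.

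**Figure D1:**
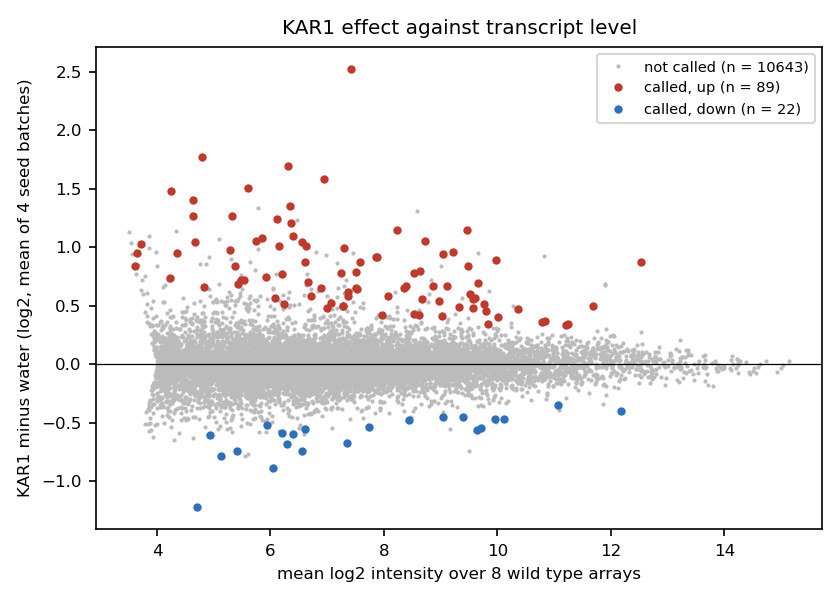
KAR1 minus water (log2, mean of 4 seed batches) against the mean log2 intensity of the 8 wild type arrays, 1 point per tested probe set. The 89 higher and 22 lower calls are coloured, and the higher ones reach a difference of 2.52.

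Seed batch accounted for most of the variation between the arrays. It held 80.2% of the sum of squares around the probe set means, KAR1 held 8.61% and the rest 11.1%. On the first principal component, with 64.6% of the variance, both arrays of batch A lay at -47.9 and -41.8, and the other 6 between 6.0 and 23.5. On the second component, with 11.1%, the KAR1 array lay above the water array of its own batch in each of the 4 batches. Batch A also had the higher plastid transcript level, its 69 plastid probe sets having a median log2 intensity of 10.2 (water) and 10.0 (KAR1), against 7.51 to 8.78 on the other 6 arrays. The 25S rRNA control was lower on KAR1 by a mean of -0.88, with 0.04, -1.90, -0.65 and -0.99 in batches A to D. Its mean log2 level was 4.529, close to the level threshold of 4. The 3' minus 5' log2 signal is a sign of RNA quality. For GAPDH it was 2.08, 1.52, 2.08 and 2.14 on water and 1.69, 1.68, 1.74 and 1.76 on KAR1. For actin it was 4.614, 4.998, 4.916 and 4.974 on water and 4.63, 4.985, 4.936 and 5.017 on KAR1. For ubiquitin it was 0.9798, 0.9445, 1.09 and 0.7978 on water and 1.002, 0.9159, 0.9473 and 0.7218 on KAR1. The part of these controls in the results was not tested. Median intensities of the arrays ran from 10.4 to 12.6. The 13 fixed markers of seed storage had no probe set of their own in the annotation, so the tissue label could not be checked against them. Of 5 leaf markers 1 was measured, RCA, at intensities of 10.2 to 17.3. Of 5 endosperm markers DELTA-VPE and GH9C1 were measured, at 4.5 to 5.2 and 4.8 to 4.9, and of 3 pollen markers AT5G45880 and AT3G07820, at 5.7 to 16.9 and 5.2 to 6.1.

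**Figure D2:**
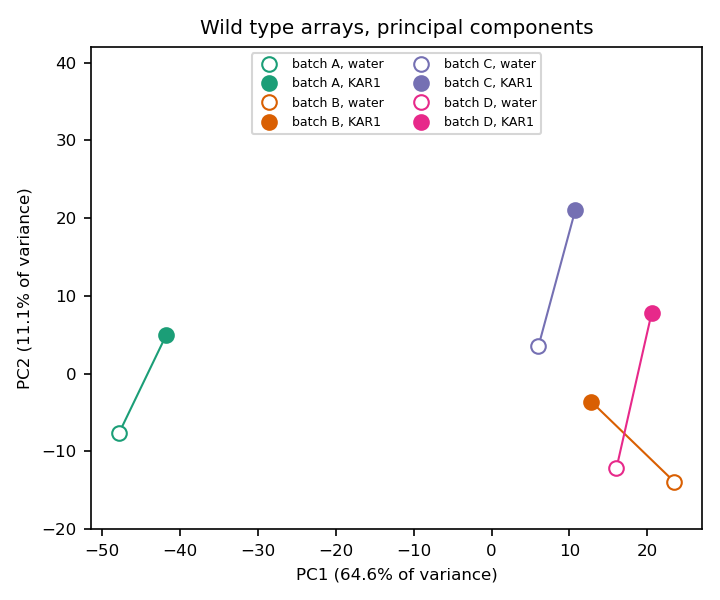
First and second principal components of the 8 wild type arrays, log2 intensity of the 10754 tested probe sets, with the water and KAR1 arrays of each seed batch joined. The first component sets batch A apart, and on the second each KAR1 array lies above its water array.

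The list of 29 light signalling loci had 7 measured members, 6 of which passed the level threshold, and 4 rose while 1 fell. These are 66.7% and 16.7% of those tested, beside 0.828% and 0.205% of all tested probe sets. The median difference of the 7 was 0.65, beside 0.00 over all probe sets; the list was chosen with earlier results of these data known, so its direction is no independent evidence.

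AT3G44450 (BIC2) encodes an inhibitor that binds cryptochromes, the blue light receptors, and keeps them from forming active dimers. Its intensities on water were 52.8, 40.1, 48.0 and 24.7 in batches A to D, and on KAR1 they were 98.1, 83.1, 84.4 and 71.9. Every KAR1 array was above every water array. The difference was 1.07 ± 0.13 (log2, SE), a 2.11-fold rise, with an adjusted p of 0.0124 by limma. The probe set of the related inhibitor AT3G52740 (BIC1) gave 158, 183, 124 and 126 on water and 249.8, 240.1, 216 and 213 on KAR1. Its groups did not overlap either, and the rise was 0.65 ± 0.09 (limma adjusted p 0.0196).

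AT2G16365 (PCH1) encodes a protein that stabilises the active form of phytochrome B, the red light receptor. Water arrays gave 56.5, 93.1, 66.7 and 52.3, and KAR1 arrays 101, 148, 155 and 144. The groups did not overlap, and the lowest KAR1 value was that of batch A. PCH1 rose by 1.05 ± 0.13 (limma adjusted p 0.0141). HYH, a bZIP transcription factor of light responses and the relative of HY5, gave 136, 96.7, 90.4 and 67.8 on water and 189.9, 167, 121 and 129.5 on KAR1. Its groups overlapped because batch A was high on both media, while each batch rose by itself, by 0.66 ± 0.11 on average (limma adjusted p 0.0326).

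The member that fell was AT4G33980 (COR28), a regulator that responds to cold and light. Intensities were 900.3, 1028, 857 and 1329 on water and 677, 798, 612 and 699 on KAR1, with no overlap. The difference was -0.55 ± 0.09 (limma adjusted p 0.0388). Its relative COR27 differed by -0.58 ± 0.18 and did not pass (limma adjusted p 0.195), with differences of -0.68, 0.13, -0.65 and -1.11 in batches A to D.

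**Figure D3:**
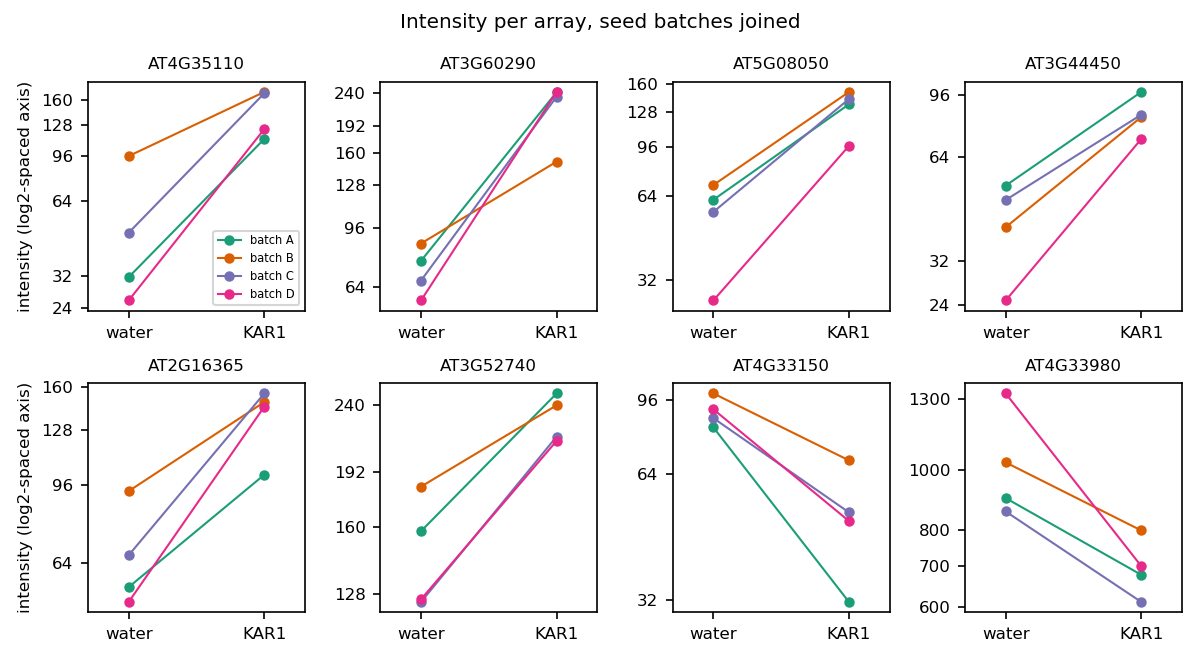
Intensity per array on a log2-spaced axis for 8 called genes, with the water and KAR1 arrays of a seed batch joined by a line. Every line rises for the 6 higher genes and falls for AT4G33150 and AT4G33980. The 8 were picked for display, and all are calls without overlap of the groups, as were 55 of the 111.

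Among the other genes that rose, AT4G35110, of the PEARLI 4 family, had the largest difference of those with a gene name and a water level above the threshold. Its intensities were 31.8, 96.1, 47.7 and 25.7 on water and 112, 173, 171 and 123 on KAR1. Batch B was highest on water and rose least, and no KAR1 array lay below a water array. The rise was 1.69 ± 0.19 (3.23-fold, limma adjusted p 0.0101). AT3G60290, an oxygenase of the 2-oxoglutarate-dependent family, gave 76.5, 86.1, 66.9 and 58.4 on water and 242, 150.4, 234 and 242 on KAR1. Batch B was the low array on KAR1, still above all water arrays, and the rise was 1.58 ± 0.17 (2.99-fold, limma adjusted p 0.0101).

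AT5G08050 (RIQ1) encodes a thylakoid protein that affects the stacking of grana and the dissipation of excess light. It gave 62.0, 70.0, 56.1 and 27.1 on water and 136, 150.5, 142 and 96.6 on KAR1. Batch D was lowest on both media and rose most, by 1.83, and the mean rise was 1.35 ± 0.13 (limma adjusted p 0.0101). AT3G55720 rose from 14.9, 33.7, 29.7 and 30.5 to 46.5, 64.9, 66.1 and 75.6, a difference of 1.26 ± 0.13 (limma adjusted p 0.0101). The array of batch A on water stood apart as the low one. AT3G14880 rose by 0.67 ± 0.08, from between 309 and 464 to between 538 and 643, without overlap (limma adjusted p 0.0110).

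AT1G25275 had intensities of 387 to 904 on water and 721 to 1253 on KAR1. These ranges overlapped, and the difference within batches was 0.69 ± 0.08 (limma adjusted p 0.0101). AT4G37290, the precursor of a small secreted peptide, ran from 18.0 in batch D to 118 in batch B on water and from 58.5 to 183 on KAR1. The spread between harvests exceeded the difference of 1.09 ± 0.15, which recurred in each batch (limma adjusted p 0.0209). AT1G25520 rose by 0.58 ± 0.09, from 74.5 to 92.3 on water to 117 to 143 on KAR1 (limma adjusted p 0.0287).

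Further calls among enzymes and transporters are named here after their values were seen. AT1G07440, a reductase related to tropinone reductases, rose by 1.01 ± 0.15, BGLU28, a beta-glucosidase, by 0.97 ± 0.15, and ALDH2C4, an aldehyde dehydrogenase of phenylpropanoid metabolism, by 0.48 ± 0.08. GTR2, a transporter of glucosinolates, rose by 0.87 ± 0.14 and had intensities of 62.9, 82.0, 107 and 48.9 on water and 108, 119, 175 and 135 on KAR1. AT1G61890, a transporter of the MATE family, rose by 0.75 ± 0.12, and LPR1, a multicopper oxidase known from the root response to phosphate, by 0.84 ± 0.14. Proteases were represented by AT1G01300, an aspartyl protease (0.78 ± 0.13), and AT4G01610, a cathepsin B-like cysteine protease (0.52 ± 0.09). The smallest rise with a gene name was that of MSRB5, which repairs oxidised methionine, at 0.35 ± 0.06. AT5G11420, of the DUF642 cell wall family, gave 204, 204, 427 and 365 on water and 323, 268, 816 and 797 on KAR1, so that batches C and D were above A and B on both media. Its rise was 0.78 ± 0.11, and the limma adjusted p of these 10 genes lay between 0.0217 and 0.0475.

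The remaining 9 higher genes with a name, also given after their values were seen, differed by 0.42 to 0.94 (limma adjusted p 0.0370 to 0.0490). AT1G67360, a protein of lipid droplets, gave 212, 256, 232 and 176 on water and 279, 316, 304 and 265 on KAR1, a rise of 0.42 ± 0.08 without overlap. AT4G27280, a calcium-binding EF-hand protein, rose by 0.66 ± 0.11, also without overlap. AT5G62210 showed how far harvests could lie apart: its water arrays gave 329, 1251, 422 and 122 and its KAR1 arrays 511, 1576, 1010.0 and 354. Each batch was higher on KAR1, by 0.94 ± 0.17 on average, while the groups overlapped widely. It no longer passed with a level threshold of 64 (limma adjusted p 0.104) or after quantile normalization (0.0513). AT3G02910 rose by 0.89 ± 0.16 and no longer passed at a threshold of 64 (limma adjusted p 0.0999). AT5G18470, AT2G39980, AT4G29590, AT1G06690 and AT5G48540 rose by 0.49 to 0.58.

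Of the higher genes, 5 were below an intensity of 16 on water and were tested only through their KAR1 level, so they had to be higher there. They are GSTU27, a glutathione S-transferase, AT1G33590, a leucine-rich repeat protein, AT2G16660, of the major facilitator family, AT3G11600 and AT5G48500. AT2G16660 gave 15.3, 26.6, 16.1 and 8.40 on water and 36.9, 50.8, 35.9 and 40.3 on KAR1. Its rise of 1.41 ± 0.20 (limma adjusted p 0.0217) was 1.16 with values under 16 set to 16. The other rises were 0.84 for GSTU27, 1.49 for AT1G33590, 0.74 for AT3G11600 and 0.95 for AT5G48500, and with that floor they were 0.17, 0.90, 0.60 and 0.25 and no longer passed (limma adjusted p 0.0584 to 0.603).

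Of the 22 lower probe sets, 10 had a gene name. AT4G33150 encodes the bifunctional enzyme LKR/SDH, which starts the breakdown of lysine, and it had the largest fall of the 10. Its water arrays were close together at 82.5, 99.4, 86.8 and 91.1, and its KAR1 arrays gave 31.6, 68.8, 51.7 and 49.3. The groups did not overlap, and batch A fell most. The difference was -0.89 ± 0.14, with the KAR1 level at 0.541 of the water level (limma adjusted p 0.0294). XERICO, a RING protein that raises abscisic acid when overproduced, gave 746, 764, 688 and 959 on water and 540.0, 635, 535 and 590.5 on KAR1. It differed by -0.45 ± 0.08 without overlap (limma adjusted p 0.0420), and it was the single measured member of the 22 listed loci of abscisic acid and dormancy.

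AT1G03890, a cupin of the seed storage protein family, fell from between 1021 and 1326 to between 751 and 945, by -0.47 ± 0.09 (limma adjusted p 0.0445). AT5G05600, an oxygenase that inactivates jasmonate, differed by -0.59 ± 0.11, and its groups overlapped through the KAR1 array of batch B at 89.4 (limma adjusted p 0.0426). AT2G30600 (-0.48 ± 0.09) and AT1G79540, a pentatricopeptide repeat protein (-0.60 ± 0.11), fell without overlap, and AT4G24110 (-0.54 ± 0.09) and AT5G37360 (-0.52 ± 0.10) fell with overlap. AT1G79540 had even differences of -0.53, -0.55, -0.79 and -0.54 in batches A to D. The plastid ribosomal gene rpl32 gave 311, 1281, 1309 and 1696 on water and 253, 1032, 795 and 901 on KAR1, with batch A far below the other batches on both media, and differed by -0.56 ± 0.11 (limma adjusted p 0.0487). In the fit on all 14 arrays with the block, rpl32 no longer passed (limma adjusted p 0.192).

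With 1.03% of all tested probe sets called, few or no calls in the following lists are near the background share and are no result about their members. Of the 15 measured genes for storage proteins, LEA proteins and dehydration, 14 passed the level threshold, 1 fell (AT1G03890) and none rose, with a median difference of -0.04. LEA4-5 differed by 0.00, LEA18 by -0.07 and AT3G15670 by 0.02. None of the 5 measured gibberellin genes, 4 of them past the threshold, was called: the receptors GID1A and GID1C differed by -0.12 and -0.01, the F-box gene SLY1 by -0.17 and SPY, a repressor of the pathway, by -0.11 (limma adjusted p 0.469 to 0.987). Of 69 plastid-encoded probe sets 1 fell and none rose. Their median difference was -0.09, and by batch it was -0.17, 0.37, -0.30 and -0.27, so batch B went the other way.

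Of 4 measured flavonoid genes, 3 passed the level threshold and 0 were called. UGT78D2 and UGT78D1, which glycosylate flavonols, differed by 0.72 ± 0.14 and 0.78 ± 0.20, and CHIL, which assists chalcone isomerase, by 0.93 ± 0.19 (limma adjusted p 0.0604, 0.117 and 0.0604). In batches A to D the differences were 0.37, 0.62, 1.02 and 1.72 for CHIL and 0.88, -0.13, 1.22 and 1.13 for UGT78D1. The fourth gene, DFR, a reductase of anthocyanin synthesis, lay under the threshold and differed by -0.04. Of 29 measured expansin and xyloglucan endotransglucosylase genes, which loosen or remodel the cell wall, 5 passed the level threshold and 0 were called. EXPA20 differed by 0.85 ± 0.19 (limma adjusted p 0.0790). The other 24 were not tested. Among them EXPA9 differed by 0.41, 0.05, 1.56 and 2.28 in batches A to D and EXPA8 by -0.02, 0.15, 1.41 and 2.10, at group means under an intensity of 16, and both were named after their values were seen. Of 43 UDP-glycosyltransferases, 24 cytochrome P450s and 9 autophagy genes, 14, 7 and 9 were tested and 0 were called.

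Probe sets without a single gene in the annotation made up 65 of the 111 calls, 53 higher and 12 lower, and are given by their identifiers. Probe set 252924_at had the largest difference of all calls, 2.52, with 1.98, 1.66, 2.20 and 4.26 in batches A to D. Probe set 250634_at differed by 1.77. Its water mean was 3.914 (log2), under the level threshold of 4, so it was tested only through its KAR1 level and had to be higher there. The largest fall was that of 248371_at, by -1.22, to a KAR1 mean of 4.097, close to the threshold. The last was even across batches, at -1.31, -0.90, -1.31 and -1.37.

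The differences are given by harvest as a description, since each harvest is 1 pair of arrays and the called probe sets were chosen on these values. Among the 89 higher calls the median difference was 0.63 in batch A, 0.52 in B, 0.77 in C and 0.99 in D, and among the 22 lower calls it was -0.54, -0.45, -0.63 and -0.70. Batch D had the largest of the 4 differences in 62 of the 89, and batch B the smallest in 51. Over all tested probe sets the differences of batches C and D correlated at r = 0.51, those of A with C and with D at 0.31 each, and those of B with A at 0.03, with C at 0.12 and with D at 0.21. These correlations are across genes and describe pairs of arrays. With 1 sign in all 4 batches and a mean difference of at least 0.5, 154 probe sets (1.43%) were higher and 39 (0.363%) lower.

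**Figure D4:**
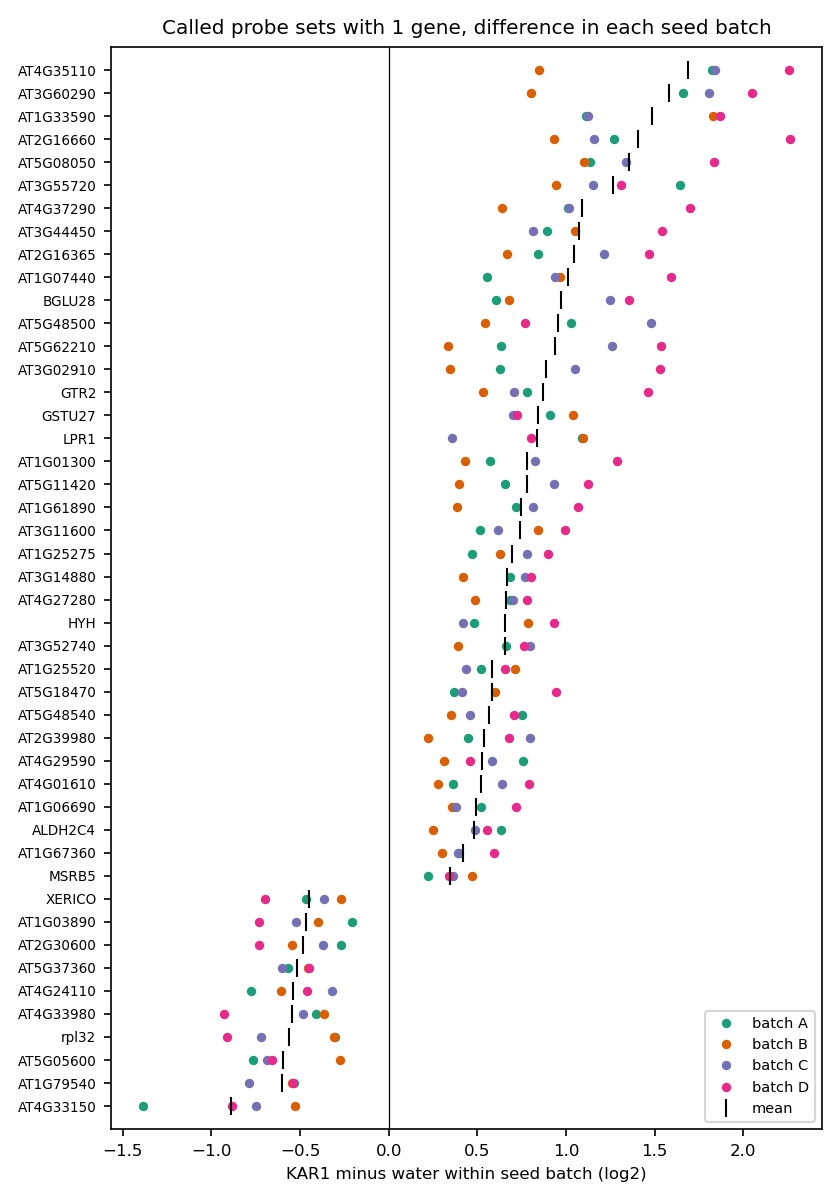
KAR1 minus water (log2) in each seed batch for the 46 called probe sets with 1 gene. Over all 89 higher calls, including those not drawn, the median runs from 0.52 in batch B to 0.99 in batch D. No called probe set changes sign between batches.

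The ga1-3 arrays took no part in making the 111 calls and show how the same probe sets behaved in seed with little gibberellin. The lists and the set of known genes were chosen with earlier results of these data known. Of the 111, 109 had the same sign of mean difference in ga1-3, against 64.7% of all tested probe sets. The sign was the same in all 3 ga1-3 batches for 94 of the 111. That share was not counted over all tested probe sets, and the 64.7% is no background for it. In a limma fit on all 14 arrays with the block, 100 probe sets (0.93%) were called for KAR1 in ga1-3, and 41 of them were among the 111. That fit takes its variance from the wild type arrays too, so the 41 are not independent of the wild type calls. The median difference of the 89 higher calls was 0.57 in ga1-3 against 0.74 in wild type, where they were chosen. That of the 22 lower calls was -0.39 against -0.56.

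AT3G60290 rose by 2.13 ± 0.25 in ga1-3, with 2.85, 1.78 and 1.77 in its batches A to C (limma adjusted p 0.00770). BIC1, PCH1 and HYH rose there by 0.63, 1.06 and 0.57, and COR28 and XERICO differed by -0.55 and -0.45. BIC2 differed by 0.62 ± 0.16 in ga1-3 and did not pass (limma adjusted p 0.115). AT1G79540, AT5G11420 and AT4G29590 had mean differences near 0 in ga1-3, of -0.04 ± 0.12, 0.07 ± 0.19 and 0.05 ± 0.12, where wild type had -0.60, 0.78 and 0.53. They were picked as the calls with a gene name whose ga1-3 means lay closest to 0. The ga1-3 batches A to C differed in sign, with 0.71, -0.29 and -0.22 for AT5G11420. For AT4G29590 they gave 0.29, -0.27 and 0.14, and for AT1G79540 -0.05, 0.02 and -0.08. The test of the difference between genotypes called no probe set (0%), with limma adjusted p of 0.981 or more for the named calls. The difference between genotypes had 457 probe sets at an unadjusted p under 0.05 by limma, beside 538 expected by chance. The median SE of this difference was 0.157 on the log2 scale, so a p that missed the threshold does not show that the genotypes responded alike.

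**Figure D5:**
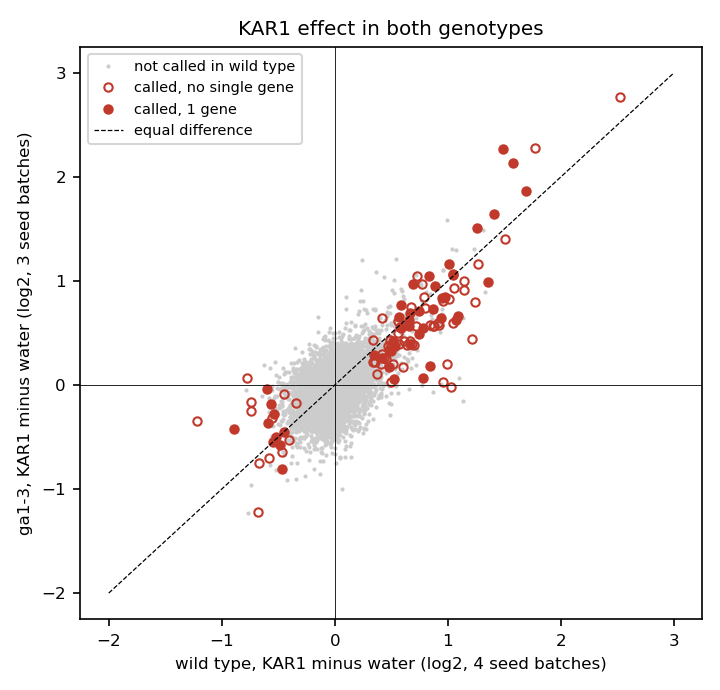
KAR1 minus water (log2) in ga1-3 against the same in wild type, including the 111 probe sets called in wild type. All but 2 of the 111 lie on the same side of 0 in both genotypes, and the wild type values are those that chose them.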

How the data were processed

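RNA from seed was measured on single-colour arrays; 7 ug of total RNA per sample was labelled with biotin, per the labels' protocols. The deposited values are 1 linear intensity per probe set and array, made by the authors with GCRMA per the submitters' processing notes (version, and whether arrays were normalized together, not given in the sources used here). No scanner values were used here, so detection could not be checked. The number of arrays limits the precision.

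The log2 of the intensity was taken. limma 3.58.1 in R 4.3.3 (lmFit with seed batch as block on the 8 wild type arrays, 3 residual degrees of freedom, eBayes with trend and robust, two-sided) gave every adjusted p in wild type (Benjamini-Hochberg over 10754 probe sets, call under 0.05), and ± after a difference is its SE. The difference between genotypes came from all 14 arrays with the block. Left out were 64 controls and 11992 probe sets with a mean log2 under 4 in both groups. The 24 just inside that level differed by -0.41 to 0.77 (median 0.04) and the 24 just outside by -0.33 to 0.16 (median -0.02). Only through the KAR1 group passed 109 probe sets, 8 of them called higher; only through water passed 96, none called lower.

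The labels state that letters mark separate harvests. Deviations from the group means correlated within pairs at 0.864, 0.611, 0.530 and 0.705 for A to D, so the arrays were treated as paired. The platform annotation gives 13513 probe sets 1 gene, 503 several and 8730 none; 13436 matched RefSeq genes (TAIR10.1).

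Members and lists were chosen with earlier results of these data known, including that an unblocked fit without a level threshold made no wild type call. Named genes are the 12 smallest p and 6 largest differences in each direction with 1 sign in all batches, up to 4 per list and a set of known genes; other names were added after their values were seen. Organelle lists were matched by chromosome or symbol, since their locus pattern matched nothing.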

Additional observations from a re-analysis of the deposited data

Results flagged for a closer look

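Within a group of 4 arrays, 20 of 212 groups (106 named probe sets) had 1 array apart from the rest by Dixon's criterion; chance gives about 1 in 20. Batch A was the array apart in most.

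On water, batch A lay apart for AT3G55720 (intensity 14.9, next 29.7), rpl32 (311, next 1281), AT2G15960 (1406 against 835), AT4G10360 (38.0, next 29.3), nad1 (133, next 11.5), CYP71B26 (56.4, next 33.1), SWEET6 (120.9, next 82.4) and LPR1 (19.1, next 35.5). On KAR1, batch A lay apart for AT2G16365 (101, next 144), SPY (288, next 528), ICL (13865, next 16296), ccb382 (11.7, next 30.2), nad1 (77.8, next 9.60), ZAP1 (189.7, next 291), ATG8B (345, next 257), ALDH2C4 (751, next 933) and AT2G39980 (343, next 704). The other 3 were AT3G60290 on KAR1 in batch B (150.4, next 234), AT2G46140 on water in batch D (352, next 432) and PSBW on KAR1 in batch D (50.4, next 76.2).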

How the results depend on the processing

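The 111 calls (89 higher, 22 lower) kept their direction in every setting that measured them. That was mostly fixed in advance by their having 1 sign in all 4 batches. The counts did not hold. Without the replicate block there were 0 and 0 on the 8 arrays, on all 14 arrays and with no level threshold as well, and with the block but no level threshold 0 and 0. All 14 arrays with the block gave 125 and 47, an intensity threshold of 64 gave 111 and 43, eBayes without trend and robust gave 20 and 3, and array weights gave 261 and 107. Quantile normalization gave 77 and 19, and 7 of the 46 calls with a gene name were lost at limma adjusted p of 0.0512 to 0.0568 (AT1G67360, AT2G39980, AT5G37360, AT5G48500, AT5G62210, MSRB5 and rpl32). Leaving out 1 replicate gave 0 to 178 higher and 0 to 62 lower. Adjustment over all 22746 probe sets gave 33 and 3, a setting added after seeing the data, like the unblocked fit without threshold. Another added setting, no level threshold with values under 16 set to 16, gave 300 and 164; 11088 probe sets then had the same value on all 8 arrays and so no variance, and its lowest adjusted p was 2.466e-41, so those calls are not usable. The interaction stayed at 0 calls with and without the block (457 and 41 at an unadjusted p under 0.05, beside 538 expected by chance). Probe sets with 1 sign in 4 batches and a mean of at least 0.5, 154 and 39, became 95 and 19 at a threshold of 64, 100 and 14 with a pseudocount of 16, 349 and 248 at a size of 0.3, and 30 and 1 at a size of 1. The cause of these changes was not tested. With 3 residual degrees of freedom, the calls rest on variance shared between probe sets.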
